A study of Mus musculus with 12 samples.

Results

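Histone acetyltransferases are the enzymes that transfer an acetyl group from acetyl-CoA to lysines of histones and other proteins. Their genes were taken by symbol as the 9 genes *Ep300*, *Crebbp*, *Kat2a*, *Kat2b*, *Kat5*, *Kat6a*, *Kat6b*, *Kat7* and *Kat8*, out of 23238 gene symbols in the count files, 17480 of them with at least 1 count. All 9 passed the filter on low counts, which kept 13054 genes. The question was whether the relatives of the deleted gene *Ep300* differed in the libraries labelled as p300 knockout.

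RNA was sequenced from cells sorted as alveolar type II (ATII) cells, the surfactant-secreting cells of the lung alveolus. They came from 12 mice and were sorted as CD74+ EpCAM+, with 1 mouse per library and 3 mice in each of 4 groups. All mice are described as *Spc-p300* floxed animals, which carry LoxP sites around exon 9 of *Ep300* and a tamoxifen-activated Cre (CreERT2) driven by the *Spc* promoter. Con mice were *Spc-p300* f/f given PBS, BLM mice were *Spc-p300* f/f given bleomycin, KO mice were *Spc-p300* d/d given PBS, and KOBLM mice were *Spc-p300* d/d given bleomycin. An age of 8 weeks is listed for all 12 mice, and the sorting protocol gives 8 to 10 weeks. Tamoxifen for the deletion was given at 10 mg/kg to mice that were 8 weeks old at that injection. Bleomycin, a DNA-breaking drug used to injure the lung, was instilled intratracheally at 4 mg/kg. The labels call the first group wild type and the Con and BLM mice negative controls for the knockout, and the sorting protocol names C57BL/6 mice, so the controls are described in more than one way. Tamoxifen is listed for the KO and KOBLM mice only. The study describes the sorted cells as coming from floxed mice after vehicle or tamoxifen. As described, the knockout label and tamoxifen go together, and their effects cannot be told apart in any comparison below. The promoter directs the Cre to cells that express surfactant protein C, and cells in which the Cre was never active keep an intact gene. Which of the sorted cells carry the deletion cannot be seen in these counts.

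p300 and CBP, the products of *Ep300* and *Crebbp*, are large co-activators of one family that are recruited by transcription factors and acetylate histone H3 at enhancers, among other sites. GCN5 (*Kat2a*) and PCAF (*Kat2b*) belong to the GNAT family and work inside the SAGA and ATAC complexes. The MYST family holds TIP60 (*Kat5*), MOZ (*Kat6a*), MORF (*Kat6b*), HBO1 (*Kat7*) and MOF (*Kat8*), each of which acts in a multi-subunit complex with its own histone targets, such as histone H4 lysine 16 for MOF.

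Each library held between 7005005 and 11153154 counts, so that 3 counts, the upper limit that a count of 0 allows, corresponded to 0.269 to 0.428 CPM (the count of a gene relative to the total of its library). This limit covers counting error only. The libraries differed in how many genes had a count, from 6847 in BLM 3 and 8790 in KO 3 to 13838 in BLM 1. Of 8046 genes with a median of at least 10 CPM, 2901 had 0 counts in BLM 3, 958 in KO 3, 850 in KOBLM 2 and 7 to 339 in the other libraries. A list of 8 genes that mark pluripotent cells summed to 2011 CPM in BLM 3 and to between 0.648 and 18.0 CPM elsewhere. The 12 ATII markers summed in Con to between 674 and 2071 CPM, in BLM to between 458 and 889, in KO to between 183 and 770 and in KOBLM to between 186 and 666. *Sftpc*, the surfactant protein C gene whose promoter drives the Cre, ran from 0.554 CPM in KOBLM 3 to 612 CPM in Con 2, *Sftpb* was at 0 in KOBLM 3, and *Lamp3* was at 0 in BLM 3, KOBLM 2 and KOBLM 3. Of the markers used for the sort, *Epcam* ran from 2.75 CPM in KO 2 and 2.99 in KOBLM 3 to 329 in BLM 3. *Cd74* ran from 460 CPM in KO 2 to 2247 in BLM 2. The 12 macrophage markers summed in Con to between 11874 and 25700 CPM, in BLM to between 916 and 8220, in KO to between 9363 and 40994 and in KOBLM to between 8546 and 22501. The macrophage sum exceeded the ATII sum in every library. Sums of other lists also separated groups. The 5 fibroblast markers summed to 901 to 1390 CPM in BLM against 64.3 to 424 in Con and 116 to 587 in KOBLM. The 4 club and ciliated cell markers summed to 217 to 246 CPM in BLM against 25.3 to 128 in Con and 27.2 to 112 in KOBLM, and the 6 ATI markers to 348 to 400 against 157 to 285 and 49.99 to 320. The 6 B and T cell markers were lower in BLM (0 to 22.03 CPM) than in Con (26.2 to 72.3), and the 5 endothelial markers lower in KO (44.2 to 340 CPM) than in Con (350.2 to 702). The part of these cells in the values below was not tested.

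*Ep300* lies on the plus strand of chromosome 15 of GRCm38 (mm10), from 81585351 to 81652077, and its longest protein-coding transcript in GENCODE M21 has 31 exons and 9566 nt. The floxed exon is shown because the count of the targeted gene is the usual check of a knockout label, and its place in the transcript sets what that check can see. Exon 9 is coding and lies at chr15:81620000-81620117 on the plus strand.
Ep300 exon 9: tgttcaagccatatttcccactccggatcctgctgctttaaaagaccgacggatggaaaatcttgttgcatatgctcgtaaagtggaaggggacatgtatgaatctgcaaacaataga
Its 118 nt leave a remainder of 1 on division by 3, so joining exon 8 to exon 10 shifts the reading frame. The next line gives 12 nt of exon 8 followed by 22 nt of exon 10, with the first stop codon in the shifted frame in capitals.
Ep300 exon 8 joined to exon 10: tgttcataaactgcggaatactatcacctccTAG
On the reference transcript the normal frame has 2412 codons, of which 587 are complete before exon 9. Without exon 9 the frame stops after 594 codons, 7 of them out of frame, as predicted from the reference and not measured. A distance of 6453 nt separates exon 9 from the 3′ end. The QuantSeq kit starts from the poly(A) tail and gives 1 read near the 3′ end of each molecule. The counts below do not cover the deleted exon and cannot show directly whether it was removed. They measure the level of the transcript, and whether the predicted early stop alters that level was not tested.

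**Figure D1:**
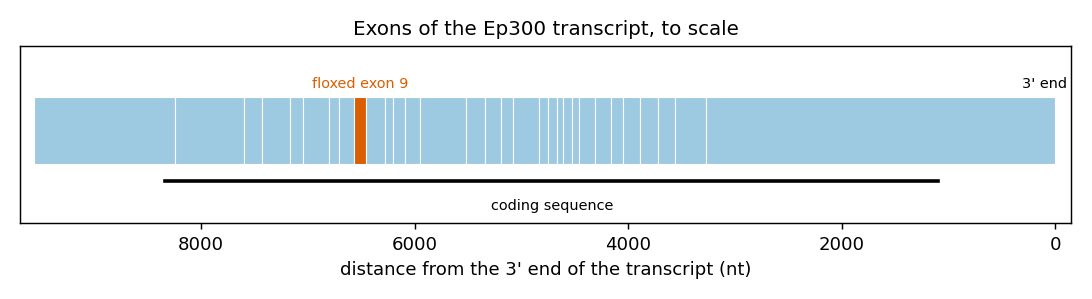
Exons of the *Ep300* reference transcript drawn to scale, with the distance from its 3′ end in nucleotides on the horizontal axis, white lines as exon borders and the black bar as the coding sequence. The floxed exon 9 (orange) ends 6453 nt from the 3′ end, where the kit reads.

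*Ep300* was not lower in the libraries labelled as knockout. It stood at 141, 143 and 51.0 CPM in Con and at 145, 154 and 103 CPM in KO. Under bleomycin it stood at 119, 90.5 and 42.6 CPM in BLM and at 169, 54.2 and 96.0 CPM in KOBLM. The ranges overlapped in both pairs of groups, and the lowest value of all was in BLM 3, a library labelled as not deleted. With the counts fitted by edgeR, the log2 fold change of the knockout label was 0.39 in PBS mice, 0.39 in bleomycin mice and 0.39 over both treatments (standard error 0.49, 95% interval -0.65 to 1.43, adjusted p = 1). The edgeR p over both treatments was 0.436, and an exact permutation of the genotype labels within each treatment gave p = 0.38, two-sided, where 0.005 is the smallest p that the 400 assignments allow. The study examined the deletion by quantitative RT-PCR of sorted ATII cells, a measurement that is not part of these counts, so every direction given for KO and KOBLM below rests on the labels. In these sorted cells, fewer cells that express a gene and less RNA of it per cell cannot be told apart.

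*Crebbp*, the closest relative of *Ep300*, was the most even of the 9 genes, and its level in libraries labelled as knockout overlapped that in the others. It lies on the minus strand of chromosome 16, from 4081328 to 4213997. Its level was 163, 210 and 170 CPM in Con and 155, 155 and 230 CPM in KO, or 181 ± 25.03 and 180 ± 43.3 CPM (SD, n = 3 each). It was 201, 133 and 286 CPM in BLM and 205, 259 and 191 CPM in KOBLM, or 206 ± 76.6 and 218 ± 35.9 CPM (SD, n = 3 each). The groups overlapped throughout, and BLM held both the lowest and the highest value. Over both treatments the log2 fold change of the knockout label was 0.15 (edgeR p = 0.655, adjusted p = 1, exact permutation p = 0.845, standard error 0.32). The 95% interval of this difference, -0.54 to 0.83, was the narrowest among the 9 genes. The biological coefficient of variation of *Crebbp* in the edgeR fit was 50.7%, against 144.4% for all genes in common. Among genes of like abundance, 1.82% had a lower dispersion.

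The ratio of the pair within a library does not depend on scaling, and since the kit gives 1 read per molecule it needs no correction for length. *Crebbp* counts exceeded those of *Ep300* in each of the 12 libraries. The ratio was 1.16, 1.46 and 3.33 in Con and 1.07, 1.01 and 2.23 in KO. It was 1.69, 1.46 and 6.70 in BLM and 1.21, 4.77 and 1.99 in KOBLM. The mean log2 ratio was 0.83 ± 0.80 in Con, 1.35 ± 1.21 in BLM, 0.42 ± 0.64 in KO and 1.17 ± 1.0 in KOBLM (SD, n = 3 each). Its difference between libraries labelled as knockout and the others was -0.29 on the log2 scale (exact permutation p = 0.555, two-sided), within the spread of every group, and it was 0.05 without BLM 3.

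The ratio ranged widely within each group. In all 4 groups, the library with the fewest genes detected had the highest ratio of *Crebbp* to *Ep300*, namely Con 3, BLM 3, KO 3 and KOBLM 2. The same libraries had the lowest *Ep300* of their group. This was noticed after the values were seen. Across the 12 libraries the log2 ratio correlated with the number of genes detected at a Pearson r of -0.80 (permutation p = 0.00311, adjusted p = 0.0155 over 10 relations computed) and a Spearman rho of -0.45 (permutation p = 0.149, adjusted p = 0.298). Without BLM 3 and KO 3, the libraries farthest from the median, r was -0.68.

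**Figure D2:**
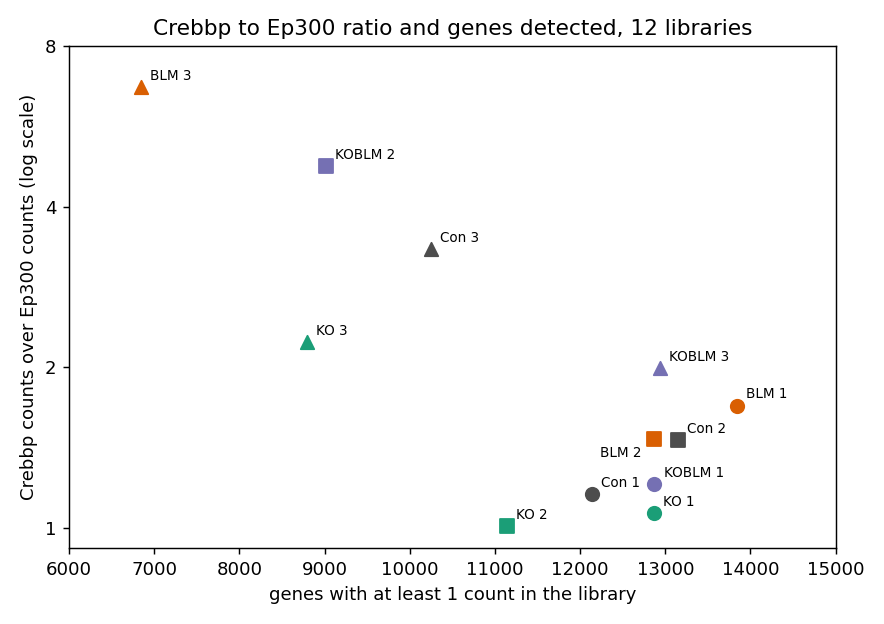
Ratio of *Crebbp* to *Ep300* counts (vertical, log scale) against the genes detected with 1 count or more (horizontal) in the 12 libraries, with colour for the group and circle, square and triangle for replicates 1, 2 and 3. BLM 3, KOBLM 2 and Con 3 have the highest ratios, 6.70, 4.77 and 3.33, at 6847, 9018 and 10246 genes.

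The GNAT genes varied widely between libraries of the same group. *Kat2a* (chromosome 11, from 100704746 to 100712465, minus strand) had the lowest median of the 9 genes. Its counts were 37, 33 and 79 in Con against 59, 148 and 400 in KO, which is 4.95, 3.53 and 7.45 CPM against 5.98, 20.3 and 37.0 CPM. In BLM its counts were 75, 25 and 0, and in KOBLM 40, 0 and 28. The KO libraries spread widely among themselves and overlapped Con, and the log2 fold change against Con was 2.07 (edgeR p = 0.387, exact permutation p = 0.2, adjusted p = 1, standard error 2.32). Over both treatments it was 0.69 (95% interval -2.71 to 4.09, edgeR p = 0.672, exact permutation p = 0.44). It was 0.30 without KOBLM 1, 0.39 without BLM 3, 0.45 without KO 3 and 1.39 without BLM 1, and was called in none of these fits. The zeros in BLM 3 and KOBLM 2 allow up to 0.269 and 0.289 CPM.

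*Kat2b* (chromosome 17, from 53566861 to 53672720, plus strand) was the more abundant of the GNAT genes. It stood at 27.4, 49.1 and 64.8 CPM in Con, 54.8, 15.7 and 52.5 in BLM, 11.3, 82.1 and 31.6 in KO and 45.1, 5.88 and 59.0 in KOBLM. The KO values reached both below and above every control value. The log2 fold change of the knockout label was 0.02 over both treatments (standard error 0.74, 95% interval -1.56 to 1.61, exact permutation p = 0.495), and its sign changed with the scaling.

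Of the MYST genes, *Kat6a* was the most abundant and the one that followed *Ep300* from library to library. It lies on the plus strand of chromosome 8, from 22859535 to 22943259. Its level was 252, 208 and 57.0 CPM in Con, 116, 98.7 and 0 in BLM, 149, 179 and 59.0 in KO and 216, 17.7 and 116 in KOBLM. The lowest value of each group came again from the library with the fewest genes detected, and in BLM 3 *Kat6a* had 0 of 11153154 counts, which allows up to 0.269 CPM. The log2 fold change of the knockout label was 0.22 (edgeR p = 0.826, exact permutation p = 0.67, standard error 1.0), and it was -0.07 without BLM 3 and -0.14 without KOBLM 1. With the number of genes detected as a covariate, a setting added after the data were seen, it was 1.46 and not called. *Kat6a* also had the highest dispersion for its abundance, since 96.1% of genes of like level had a lower one.

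*Kat6b*, which encodes the paralog that takes the place of MOZ in a like complex, lies on the plus strand of chromosome 14, from 21481434 to 21672478. It stood at 22.1, 76.4 and 38.4 CPM in Con, 28.1, 3.83 and 100.1 in BLM, 33.6, 36.3 and 43.4 in KO and 41.1, 51.0 and 21.4 in KOBLM. The KO libraries lay close together, inside the range of Con. BLM 3, where *Kat6a* was at 0, was the highest. It is 1 library, in which 2901 of the 8046 genes described above had 0 counts, and *Kat7* was highest there too. A link between *Kat6a* and *Kat6b* was not tested. The log2 fold change of the knockout label was -0.08 (edgeR p = 0.916, exact permutation p = 0.78, standard error 0.72), with a sign that changed without BLM 3, where it was 0.52.

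*Kat7*, the gene of HBO1, lies on the minus strand of chromosome 11, from 95274259 to 95310246. It stood at 58.3, 77.0 and 84.4 CPM in Con, 54.2, 66.2 and 214 in BLM, 78.0, 49.9 and 193 in KO and 46.7, 44.0 and 62.1 in KOBLM. BLM 3 and KO 3, the libraries with the fewest genes detected, stood far above the rest. The log2 fold change of the knockout label was 0.57 in PBS mice and -0.91 in bleomycin mice. The difference between these effects was -1.48 (standard error 0.95, adjusted p = 1 in edgeR), and it was -0.84 without BLM 3 and -0.91 without KO 3. The exact permutation p was 0.8 in PBS mice and 0.2 in bleomycin mice, where 3 mice against 3 cannot go below 0.1.

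*Kat5*, the gene of TIP60, lies on the minus strand of chromosome 19, from 5603014 to 5610237. It stood at 20.5, 13.8 and 37.4 CPM in Con, 19.7, 19.8 and 35.0 in BLM, 25.04, 45.05 and 19.5 in KO and 11.8, 38.1 and 11.196 in KOBLM. The groups covered nearly the same range, and the log2 fold change of the knockout label was 0.17 (edgeR p = 0.83, exact permutation p = 0.93, standard error 0.77). On the log2(CPM + 1) scale of the permutation, *Kat2b*, *Kat5* and *Kat6b* differed in the opposite direction, by -0.48, -0.06 and 0.25. The last 426 nt of the gene, chr19:5603014-5603439, overlap exons of *Rnaseh2c* in the annotation, and *Rnaseh2c* had 0 counts in BLM 3, where *Kat5* had 390.

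*Kat8*, the gene of MOF, could not be separated from its neighbour in these counts. It lies on the plus strand of chromosome 7, from 127912516 to 127925837, and its 3′ end overlaps that of *Prss8*, the gene of the protease prostasin on the opposite strand, over the 122 nt of chr7:127925716-127925837. The *Kat8* counts were 64, 71 and 15 in Con, 115, 43 and 0 in BLM, 21, 25 and 519 in KO and 58, 612 and 55 in KOBLM. Those of *Prss8* were 91, 70 and 14 in Con, 97, 50 and 0 in BLM, 3, 25 and 518 in KO and 89, 611 and 50 in KOBLM. The counts of the genes differed by at most 1 in 6 of the 12 libraries, and by at most 31 in any. Both exceeded 500 in KO 3 and KOBLM 2 and in no other library. The strand setting of the counting is not given in the sources used here, so reads of these genes cannot be told apart, and *Kat8* values are uncertain. Its log2 fold change with the knockout label, 1.59, was the highest of the 9 genes (standard error 1.44, 95% interval -1.49 to 4.67, edgeR p = 0.287, exact permutation p = 0.295), and it was 0.40 without KO 3 and 0.74 without KOBLM 2. With only the 2 libraries of each group with most genes detected, a setting added after the data were seen that leaves out both, it turned to -0.94.

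**Figure D3:**
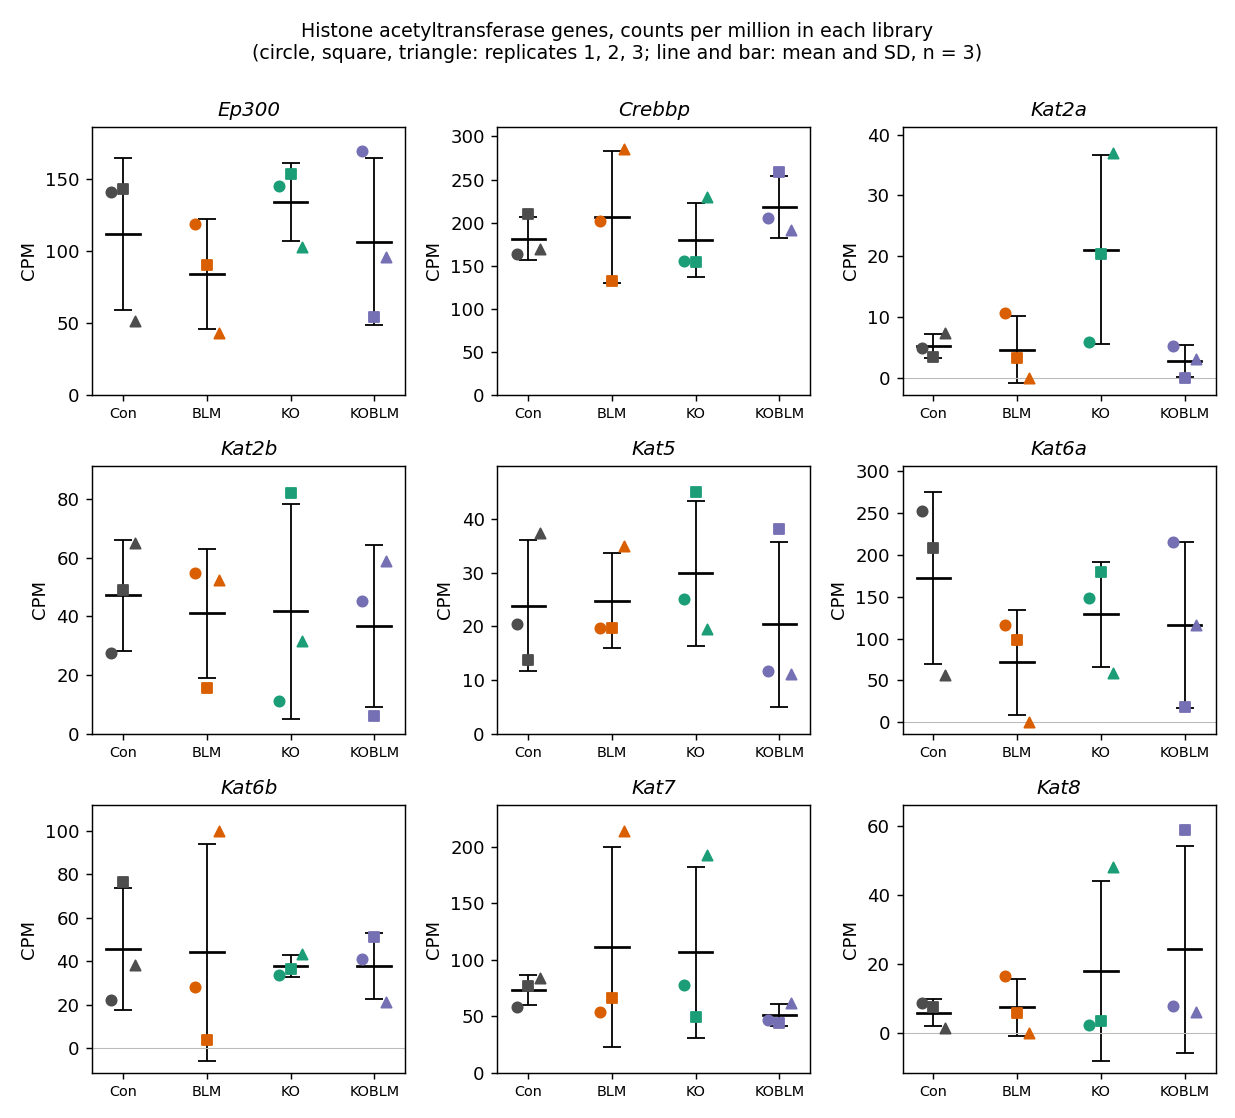
CPM (vertical axis, linear, one scale per gene) of the 9 acetyltransferase genes in each library by group, with circle, square and triangle for replicates 1, 2 and 3, and the line and bar for the mean and SD (n = 3). *Ep300* in KO lies at 103 to 154 CPM, inside and above the Con range of 51.0 to 143, and *Crebbp* spans 133 to 286 CPM over all libraries.

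In the 3 comparisons of the knockout label, 0 of the 9 genes passed a fold change over 1.5 with an unadjusted edgeR p under 0.05. The same threshold was passed by 1.44% of the 13054 tested genes between KO and Con (188 genes), by 3.16% between KOBLM and BLM (413 genes) and by 2.9% over both treatments (379 genes). Against shares this low, a count of 0 among 9 genes is near the background. The median log2 fold change of the 9 genes was 0.39 in KO against Con, 0.03 in KOBLM against BLM and 0.17 over both treatments, beside -0.09, 0.10 and -0.01 for all tested genes. A fold change over 1.5 without regard to p was reached by 2, 4 and 2 of the 9 genes, beside 52.5%, 64.1% and 48.7% of all tested genes. In edgeR, 0 genes of the whole table had an adjusted p under 0.05 in each of these comparisons, and 188, 413 and 379 an unadjusted one. In DESeq2, 80, 78 and 93 genes had an adjusted p under 0.05 and 374, 755 and 575 passed the threshold on the fold change and unadjusted p, with 0 of the 9 acetyltransferases among them. The intervals of the 9 genes had a median width of 4.49 on the log2 scale in KO against Con and 3.18 over both treatments. Differences smaller than the reach of an interval to either side of its estimate could not be separated from 0. That reach differed between genes. Over both treatments the interval was -0.54 to 0.83 for *Crebbp* and -2.71 to 4.09 for *Kat2a*.

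**Figure D4:**
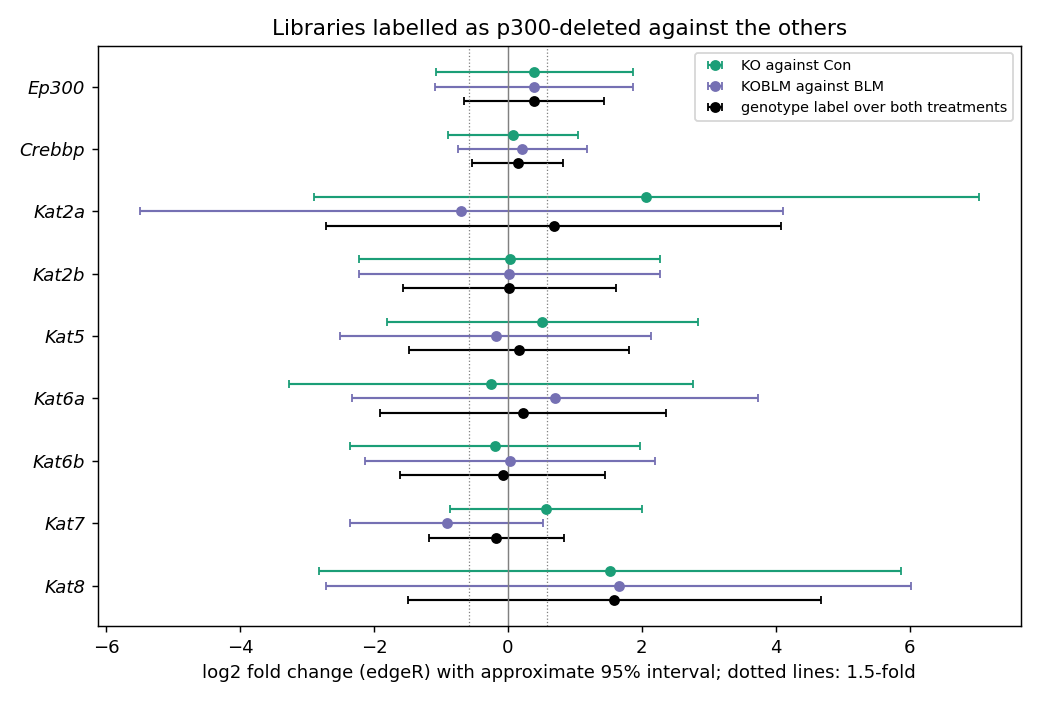
Log2 fold change in edgeR with its approximate 95% interval (horizontal axis) for each acetyltransferase gene, in KO against Con (green), KOBLM against BLM (purple) and over both treatments (black), with dotted lines at 1.5-fold. All 27 intervals include 0, and those of *Crebbp* are the narrowest, -0.54 to 0.83 over both treatments.

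The counts for bleomycin were also 0. Between BLM and Con the sums of fibroblast, club and ciliated cell, ATI, macrophage and B and T cell markers given above did not overlap. Of the 9 genes, 0 passed the threshold in BLM against Con, where 4.27% of all tested genes did, 0 in KOBLM against KO (1.69% of all), and 0 over both genotype labels (4.47% of all). The interaction of bleomycin with the genotype label was called for 0 of the 9 genes, beside 2.82% of all. Over both labels the log2 fold change was -0.35 for *Ep300* (standard error 0.49, exact permutation p = 0.27), 0.22 for *Crebbp* (standard error 0.32, exact permutation p = 0.305) and -0.67 for *Kat6a* (standard error 1.0, exact permutation p = 0.25). *Kat2a* had the lowest value, -1.44 (standard error 1.61, edgeR p = 0.384, exact permutation p = 0.075, adjusted p = 0.61 over 10 measures). Its KO libraries, at 5.98 to 37.0 CPM, did not overlap the KOBLM libraries, at 0 to 5.35 CPM. The ranges of KO and KOBLM did not overlap for 6.82% of all tested genes either, nor those of KO and Con for 9.74%, of KOBLM and BLM for 11% and of BLM and Con for 17.1%. All other pairs of groups compared for the 9 genes overlapped. The log2 fold change of *Kat2a* between KOBLM and KO was -2.83 (edgeR p = 0.256, standard error 2.39, adjusted p = 1), with an exact permutation p = 0.1, the smallest possible. The value over both labels was -3.75 with genes detected as a covariate and -0.50 with the 2 libraries of each group with most genes detected, neither of them called. The median log2 fold change of the 9 genes was -0.24 over both labels, beside 0.03 for all tested genes, and 2 of the 9 were above 0.

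The call for *Kat6a* depended on how the libraries with few genes were treated. With the number of genes detected as a covariate, *Kat6a* was called lower under bleomycin, with a log2 fold change of -2.03 over both labels and -2.42 in BLM against Con. In the same fits 7.51% and 6.75% of all tested genes were called, above the 4.47% and 4.27% without the covariate. With the 2 libraries of each group with most genes detected, also added after the data were seen, the call was made in BLM against Con at -1.02, where 9.9% of 13841 tested genes were called. In that setting *Kat5* was called lower in KOBLM against KO (-1.72), where 4.18% of the tested genes were. The exact permutation on all libraries, which takes no account of the genes detected, gave p = 0.3 for *Kat6a* in BLM against Con.

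By the median over the 12 libraries, the order of the levels was *Crebbp* (196 CPM), *Kat6a* (116), *Ep300* (111), *Kat7* (64.1), *Kat2b* (47.1), *Kat6b* (37.3), *Kat5* (20.1), *Kat8* (6.84) and *Kat2a* (5.15). Neighbours in this order were compared within libraries by an exact sign-flip permutation of the log2 differences. The smallest p-values were 0.0112 for *Kat7* above *Kat2b*, 0.0151 for *Kat5* above *Kat8* and 0.0288 for *Crebbp* above *Kat6a*. After adjustment over the 8 neighbouring pairs none was under 0.05, the lowest being 0.0606, so each gene was not separable from its neighbour beyond the spread between libraries. *Crebbp* was above *Kat6a* in 9 of 12 libraries, and *Kat6a* above *Ep300* in 8 of 12. The mean log2 difference of *Kat6a* from *Ep300* was nevertheless -0.44 (sign-flip permutation p = 0.52), opposite to their order by median.

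The 9 genes together held 436 to 789 CPM of a library. *Crebbp* made up 21.3% to 49.0% of their counts, *Ep300* 5.84% to 24.0% and *Kat6a* 0% to 36.1%. *Kat6a* held the largest share in Con 1, KO 2 and KOBLM 1 and *Crebbp* in the other libraries, and in BLM 3 *Crebbp* and *Kat7* held most of the counts.

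**Figure D5:**
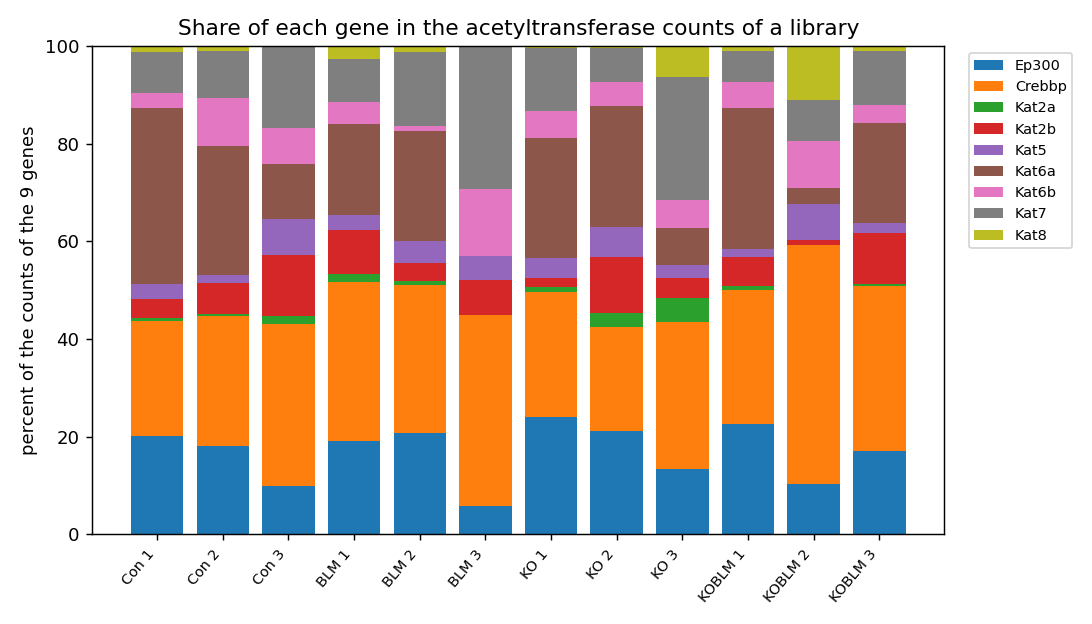
Percent of the summed counts of the 9 acetyltransferase genes held by each gene (vertical axis, 0 to 100) in each of the 12 libraries. *Ep300* (bottom, blue) ranges from 5.84% in BLM 3 to 24.0% in KO 1, and *Kat6a* (brown) has 0 counts in BLM 3.

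The genes also differed in how they varied with the number of genes detected. The Pearson r across the 12 libraries was 0.84 for *Kat6a* (permutation p = 0.00071, adjusted p = 0.0071 over 10 relations) and 0.73 for *Ep300* (permutation p = 0.00722, adjusted p = 0.0241). The Spearman rho was 0.59 for *Kat6a* (permutation p = 0.0495, adjusted p = 0.247) and 0.48 for *Ep300* (permutation p = 0.115, adjusted p = 0.298). Without BLM 3 and KO 3, r was 0.73 for *Kat6a* and 0.68 for *Ep300*. For *Kat7* it changed from -0.65 to 0.23 without these libraries and for *Crebbp* from -0.62 to -0.27, so those relations rested on them. *Kat5* had an r of -0.61 (permutation p = 0.035, adjusted p = 0.0583) and -0.76 without them.

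*Kat6a* was also the most like *Ep300* across the libraries among the acetyltransferase genes compared, which left out *Kat2a* since its mean was under 10 CPM. On log2 CPM after TMM scaling, its Pearson r with *Ep300* was 0.88. Among *Ep300* and the 8904 other genes with a mean of at least 10 CPM, only 58 had a higher r, *Ep300* itself included. *Crebbp*, the relative in sequence, had an r of -0.26, *Kat7* -0.43, *Kat5* -0.32, *Kat6b* -0.19, *Kat2b* 0.22 and *Kat8* 0.20. The genes most like *Ep300* were *Ist1* (r = 0.96), *Mre11a* (0.96), *Srrd* (0.95), *Mical3* (0.95) and *Zeb2* (0.95). *Ist1* encodes a factor of the ESCRT-III membrane machinery, *Mre11a* a nuclease of DNA break repair and *Zeb2* a zinc-finger repressor. These are descriptions over 12 libraries that share the depth and quality differences given above.

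The partners of these enzymes were examined as 96 genes in lists of complex subunits, other acetyltransferases, transcription factors bound by p300 and CBP, and readers of acetyl-lysine, of which 93 could be tested. With the knockout label, 1 of 93 was called between KO and Con (1.08%), 2 between KOBLM and BLM (2.15%) and 1 over both treatments (1.08%), shares below those of all tested genes given above. None had an adjusted p under 0.05 in edgeR. Among the 17 subunits of the TIP60 complex, 1 was called over both treatments, and the median log2 fold change was -0.02. The 19 tested subunits of SAGA and ATAC had 0 called and a median of 0.11, the 9 of the MOZ, MORF and HBO1 complexes 0 and -0.50, and the 11 of the MSL and NSL complexes, in which MOF acts, 0 and 0.02. The 13 other acetyltransferases had 0 called and a median of -0.09, the 19 partner factors 0 and 0.13, and the 10 readers 0 and -0.32.

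*Vps72*, which encodes a subunit shared by the TIP60 and SRCAP complexes that handles the histone variant H2A.Z, was the one called over both treatments. Its counts were 1420, 2039 and 2147 in Con against 1036, 450 and 781 in KO. Under bleomycin they were 1708, 1278 and 2868 in BLM against 755, 1874 and 1043 in KOBLM. The KO libraries lay below all Con libraries, a separation that 9.74% of all tested genes showed in one direction or the other, while the bleomycin groups overlapped. Its log2 fold change was -1.25 in KO against Con (edgeR p = 0.0244, exact permutation p = 0.1, the smallest possible, standard error 0.49). Over both treatments it was -0.95 (edgeR p = 0.016, exact permutation p = 0.01, adjusted p = 1 over all genes, standard error 0.35). The first call was lost without any one of Con 1, Con 2, KO 2 or KO 3, where the value ran from -1.10 to -1.30, and the second without KOBLM 1, where it was -0.84. Both were also lost with no filter on low counts, at -1.23 and -0.94. For *Vps72* and the partner genes named below, the permutation used the same libraries as the edgeR call. Its p-values are not adjusted over the 93 genes and are not independent support.

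The other calls between KOBLM and BLM rested on few libraries. *Smarca4*, the gene of the BRG1 ATPase that carries a bromodomain, was counted 957, 702 and 7538 times in BLM against 653, 417 and 1040 times in KOBLM. Its log2 fold change of -1.61 (edgeR p = 0.0431, exact permutation p = 0.2, adjusted p = 1) was -0.50 without BLM 3 and then not called, as it was not without KOBLM 1 or KOBLM 2 or in either setting that takes account of the genes detected (-1.24 and -0.12). *Supt3*, a SAGA subunit gene, was counted 14, 0 and 0 times in BLM against 248, 727 and 49 times in KOBLM (edgeR p = 0.0387, exact permutation p = 0.1, adjusted p = 1). Its call was lost without any one of BLM 2, BLM 3, KOBLM 1 or KOBLM 2.

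With bleomycin over both labels, 3 of the 93 partner genes were called (3.23%), below the 4.47% of all tested genes. They were chosen for naming after their values were seen. *Brpf1*, a scaffold of the MOZ and MORF complexes, was higher at a log2 fold change of 0.99 (edgeR p = 0.0381, exact permutation p = 0.005, standard error 0.43). *Ncoa1*, a nuclear receptor co-activator that binds p300 and CBP, was lower at -1.25 (edgeR p = 0.026, exact permutation p = 0.01, standard error 0.50). *Morf4l1*, a TIP60 complex subunit, was lower at -0.66 (edgeR p = 0.0456, exact permutation p = 0.04, standard error 0.30). Each had an adjusted p of 1 over all genes in edgeR. The permutation p of 0.005 is the smallest that the 400 assignments allow, and none of these permutation p-values is adjusted over the 93 genes. Leaving out 1 library kept the call in 3 of 12 fits for *Brpf1*, 9 of 12 for *Ncoa1* and 3 of 12 for *Morf4l1*. With no filter on low counts *Brpf1* and *Morf4l1* were not called. *Ep400*, the ATPase of the TIP60 complex, was called in KOBLM against KO (log2 fold change 1.94, exact permutation p = 0.1) and in the interaction (2.63), and *Brpf1* in BLM against Con (1.36, exact permutation p = 0.1). Leaving out 1 library kept these calls in 2 of 6, 5 of 12 and 0 of 6 fits.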

How the data were processed

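The authors deposited raw counts per gene symbol for each library, without normalization. Libraries were made from 500 ng of RNA with the QuantSeq 3′ kit and sequenced as single reads of 75 nt. The submitters' processing notes name Bowtie2, edgeR and mm10. The counting program, annotation and strand setting are not given in the sources used here. The 79 entries of 35 repeated symbols were summed, leaving 23238 symbols. CPM was the count scaled to a common library total, not divided by length. Genes kept by filterByExpr (minimum count 10, minimum total 15) were scaled by TMM and fitted with the quasi-likelihood test of edgeR 4.0.16 in one model of the 4 groups with 8 residual degrees of freedom. A gene was called where its fold change exceeded 1.5 (0.585 on the log2 scale) with p under 0.05 before adjustment, and adjusted p-values are Benjamini-Hochberg over all 13054 genes. Exact permutations used log2(CPM + 1), except that the ratio used counts. Each library is 1 mouse, and 3 per group limits precision. The median total was 9186234 counts.

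DESeq2 1.42.0, other scalings, no filter, only the groups compared, the replicate number as a block and leaving out each library were tried. The edgeR steps were also run on simulated data. At a spread near the common one of all genes they missed many of the genes set to change 8-fold, and none passed adjustment. That spread is above those of *Ep300* and *Crebbp*. At a spread below that of any of the 9 genes, all genes set to change were called and passed adjustment. Neither setting stands for each of the 9 genes. Genes named are the 9 members, the genes of the partner lists called with the knockout label, and the 5 genes most like *Ep300* by Pearson r. *Brpf1*, *Ncoa1*, *Morf4l1*, *Ep400* and genes that overlap a member were named outside this rule. The members and lists were chosen with earlier results of these data known. Positions and transcript sequences are from GENCODE M21 on GRCm38. R 4.3.3 and Python 3.11.15 were used.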

Additional observations from a re-analysis of the deposited data

How the results depend on the processing

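The count of 0 called acetyltransferase genes was unchanged in 123 of 127 alternatives over the 7 comparisons, those with DESeq2 and an adjusted p included. Those with an adjusted p had to stay at 0, since adjustment cannot lower a p-value, so they test nothing. The other 4, all added after the data were seen, each called 1 gene. With the 2 libraries of each group with most genes detected, these were *Kat6a* in BLM against Con, where 9.9% of all tested genes were called, and *Kat5* in KOBLM against KO (-1.72), where 4.18% were. With genes detected as a covariate, 1 gene was called in BLM against Con and 1 with bleomycin over both labels, *Kat6a* each time (-2.03 over both labels), beside 6.75% and 7.51% of all tested genes. These shares were above the 4.27%, 1.69% and 4.47% of the fits on all libraries without the covariate. Why the covariate changed the call was not tested. With each library left out in turn the counts stayed at 0.

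The replicate numbers of the labels did not pair the libraries. Deviations from the group means correlated at -0.13 to 0.09 between same-numbered libraries (18 pairs) and at -0.10 to 0.14 between the others (36 pairs). With the replicate block, the log2 fold change of the knockout label was 0.52 for *Ep300*, 0.14 for *Crebbp* and 0.72 for *Kat6a*, and no call of the 9 genes changed. Of the partner genes, *Smarca4*, *Brpf1* in both comparisons, *Morf4l1* and the interaction of *Ep400* were then not called. The *Kat6b* value turned to 0.0017, and the bleomycin value of *Kat8* turned to -0.10.

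Several directions turned. For the knockout label, *Kat2b* was -0.17 with library size alone, -0.013 with genes detected as a covariate and -0.0003 in DESeq2. With those 2 libraries of each group alone, *Kat6b* was 0.38 and *Kat8*, the highest value on all libraries at 1.59, was -0.94. The covariate moved *Kat2a* to 1.56 and *Kat6a* to 1.46, neither called. Leaving out each library in turn gave log2 fold changes of the knockout label from 0.17 to 0.56 for *Ep300*, 0.07 to 0.23 for *Crebbp*, 0.30 to 1.39 for *Kat2a*, -0.54 to 0.28 for *Kat2b*, -0.21 to 0.39 for *Kat5*, -0.14 to 0.48 for *Kat6a*, -0.34 to 0.52 for *Kat6b*, -0.46 to 0.15 for *Kat7* and 0.40 to 2.23 for *Kat8*. The log2 ratio of *Crebbp* to *Ep300* ran from -0.56 to 0.053. For bleomycin these fits gave -0.52 to 0.32 for *Kat2b*, -0.73 to 0.20 for *Kat6b*, -0.56 to 0.048 for *Kat7* and -0.37 to 1.68 for *Kat8*. The causes were not tested. Of 672 alternatives computed, 571 kept the call and, where there was one, the direction. The 571 include 123 counts of called genes, which have no direction. A further 29 turned the direction and 72 changed a call, of which most concerned partner genes.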
